A study of Mus musculus with 28 samples.

Results

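Bivalent regions, in which the activating histone mark H3K4me3 and the repressive mark H3K27me3 lie on the same stretch of chromatin, were examined in mouse lung tumours. A region was built from the bases covered by peaks in at least 3 of the 4 H3K4me3 libraries on chromosomes 1 to 19, with gaps of up to 1 kb closed and a length of 200 bp or more. It was counted as bivalent when it shared at least 1 bp with bases covered in at least 2 of the 4 H3K27me3 libraries. This gave 1164 bivalent regions among 12159 H3K4me3 regions (9.57%), and the other 10995 served as the comparison. The choice rested on measured H3K4me3 and H3K27me3 peaks, so the values of these marks on the members are a description, and tests were kept to the 4 marks that took no part in the choice.

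The tumours arose in the lungs of mice given Ad-CMV-Cre, an adenovirus that expresses Cre recombinase from the broadly active CMV promoter. All carried K-RasLSL-G12D, an oncogenic K-Ras allele that Cre switches on, and one kind of tumour also carried Mll4fl/fl, floxed alleles of Mll4 (Kmt2d), which encodes an H3K4 methyltransferase. Chromatin immunoprecipitation with sequencing (ChIP-seq) on tumour tissue gave 1 peak list for each of 4 replicates of H3K4me3, H3K27me3, H3K4me1, H3K27ac, H3K79me2 and H3K9me3. The sample labels do not tie a replicate to a tumour kind, nor do they give age or whether tumours were pooled; the names of the deposited lists carry MLL for replicates 1 and 2 and RAS for replicates 3 and 4. These tags were read as tumours with and without Mll4fl/fl, which no label states, and libraries are called MLL-named and RAS-named throughout.

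H3K4me3 is laid down at gene promoters by the Set1 and MLL families of enzymes and accompanies transcription start. H3K27me3 is written by Polycomb repressive complex 2 and marks genes that are kept silent, and the same lysine can instead carry an acetyl group, the H3K27ac of active promoters and enhancers. Bivalent chromatin was first described at developmental genes of embryonic stem cells, which are silent but remain inducible. In bulk tissue, both marks on one nucleosome cannot be told apart from marks in different cells or on different alleles.

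Several libraries stood apart before any comparison. H3K4me3 replicate 1 covered 3.12 Mb, against 26.4 to 32.3 Mb in the other 3. An H3K4me3 peak in all 4 libraries was found on 420 bivalent regions (36.1%), against 39.6% of all H3K4me3 regions, and the others met the rule with 3. H3K27me3 replicate 3 covered 102.3 Mb, against 10.8, 23.7 and 32.4 Mb in replicates 1, 2 and 4. H3K27ac peaks had a median width of 234 and 216 bp in replicates 1 and 2 and of 2064 and 1713 bp in replicates 3 and 4, so that peak width for this mark moved with the MLL and RAS tags. The lists hold no read counts, and the depth of every library is unknown. No gene annotation or genome sequence of build mm9, the build in the submitters' processing notes, was used, so regions are named by mm9 position alone and the tissue label was not checked against marker genes.

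The bivalent regions had a median length of 1411 bp (quartiles 951 and 2045 bp, largest 19179 bp), against 1791 bp for the other H3K4me3 regions. They covered 1.93 Mb in all, and 38 of them (3.26%) reached 4 kb. Every autosome held some: the share of H3K4me3 regions that were bivalent ran from 6.55% on chromosome 7 (59 regions) and 7.20% on chromosome 16 (29 regions) to 12.98% on chromosome 18 (47 regions) and 13.3% on chromosome 12 (59 regions).

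The 2 defining marks were not seen evenly across the tumours. An H3K4me3 peak lay on 39.8% of bivalent regions in replicate 1 and on 99.4%, 99.7% and 97.3% in replicates 2 to 4. Replicate 1 was as sparse on the other H3K4me3 regions, where it touched 40.3%. An H3K27me3 peak lay on 55.4% and 68.6% of bivalent regions in the MLL-named replicates 1 and 2, and on 98.5% and 87.9% in the RAS-named replicates 3 and 4. The tags did not overlap here, nor on the other H3K4me3 regions, at 0.246% and 0.136% against 4.75% and 0.273%. Since the rule used this mark, nothing is read from these shares. On bivalent regions the order of the 4 libraries followed the length of genome that each H3K27me3 list covered, from 10.8 to 102.3 Mb.

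Of the bivalent regions, 496 (42.6%) had an H3K27me3 peak in all 4 libraries, 293 (25.2%) in 3 and 375 (32.2%) in 2. Among all 12159 H3K4me3 regions, 4.08% had it in all 4, 6.5% in at least 3 and 85.6% in none. The second most frequent pattern was the pair of RAS-named libraries alone, with 271 regions (23.3%). The pair of MLL-named libraries alone accounted for 3 regions. These patterns had shares of 2.26% and 0.0247% among all regions, and since the rule used this mark nothing is read from the contrast.

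Overlap of both marks was also counted within one replicate number. H3K4me3 and H3K27me3 peaks shared bases on 191 members (16.4%) in replicate 1, 792 (68.0%) in replicate 2, 1144 (98.3%) in replicate 3 and 991 (85.1%) in replicate 4. Their median shared length there was 257, 636, 1234 and 909 bp. All members showed such an overlap in at least 1 replicate, 50 of them in 1 only, 546 in 3 and 147 in all 4.

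H3K27me3 reached past both ends of most members, but only a minority of members lay wholly within it. The libraries differed in this: H3K27me3 peaks covered 23.0%, 33.3%, 89.3% and 58.1% of the bases of members in replicates 1 to 4. Bases covered in at least 2 H3K27me3 libraries made up a median of 83.8% of a member, and 376 members (32.3%) lay wholly within them. With gaps of up to 1 kb closed, the H3K27me3 domain or domains touching a member ran past both ends of 750 members (64.4%). They ran past 1 end of 342 (29.4%) and stayed inside the region for 72 (6.19%). Members where a single domain reached both ends were not counted separately. The domains touching a member had a median length of 5910 bp per member (quartiles 2731 and 11579 bp). Members sat in 1132 of the 19092 H3K27me3 domains (5.93%), and these domains were long, with a median of 5614 bp, against 739 bp for domains that held no member. The rule asks for 1 bp of overlap, which a long domain meets more readily, so nothing is read from this contrast.

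At the low end, 52 members (4.47%) had under 10% of their length in H3K27me3, and 14 shared fewer than 50 bp with it. The smallest overlaps were 6 bp, at chr19:4698012-4698773, and 10 bp, at chr3:66024636-66025189. Both regions were fully covered by H3K27me3 replicate 3, and their second library covered those few bases alone. Just outside the rule, 573 of the other H3K4me3 regions had H3K27me3 in a single library, which was replicate 3 for 512 of them. Those with most H3K27me3 bases were chr1:62749104-62754492 and chr4:54957612-54962978, where replicate 3 covered 96.4% and 91.1% of the region and the other 3 libraries had no peak. A further 10 regions had peaks in 2 or more libraries that shared no base within the region.

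**Figure D1:**
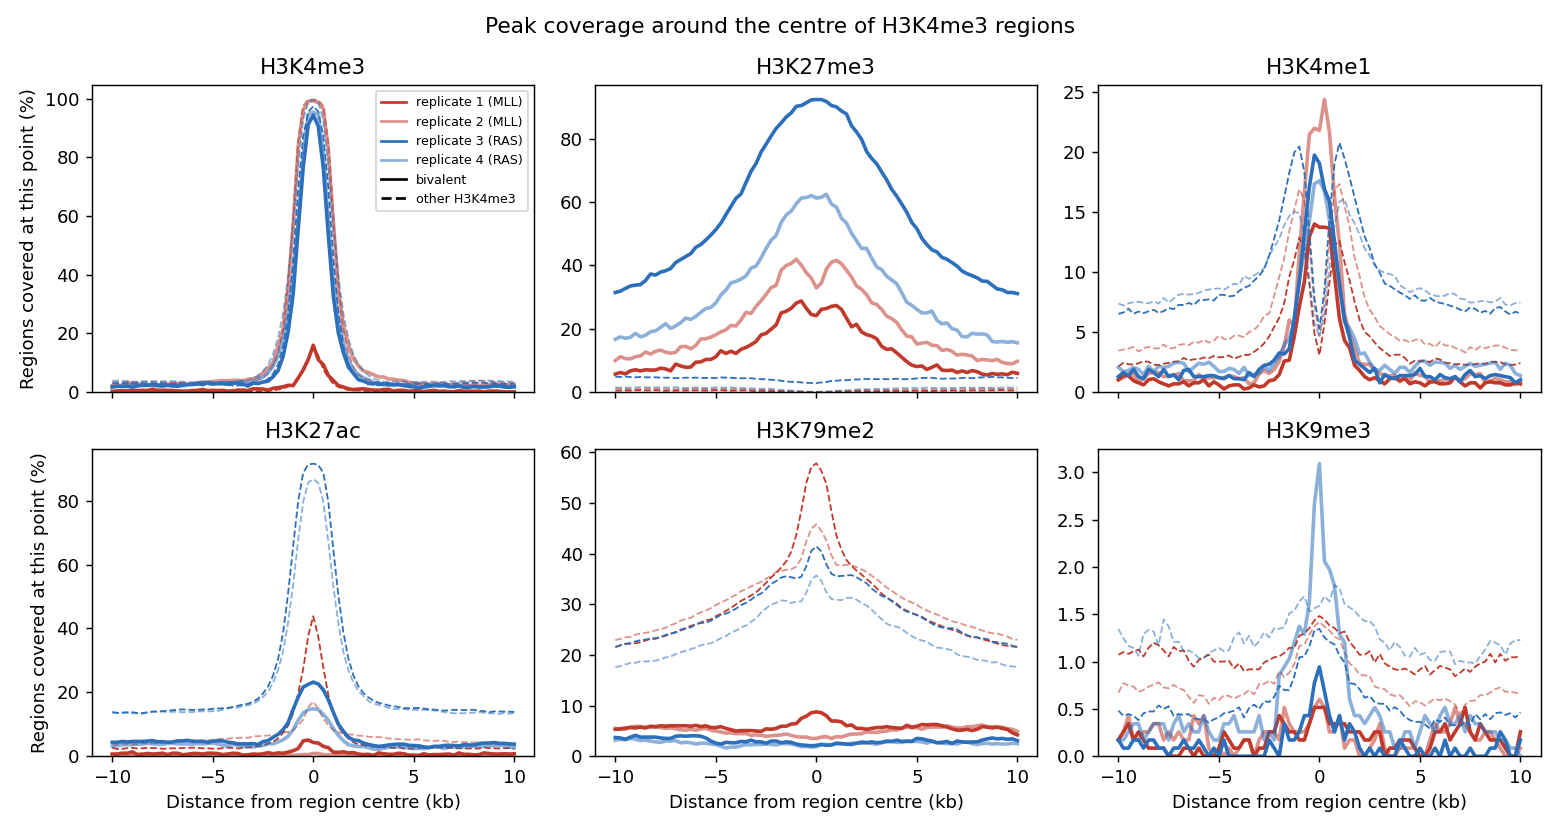
Share of regions (%) covered by a peak at each distance (kb) from the region centre, for 6 marks; solid lines are the 1164 bivalent and dashed lines the 10995 other H3K4me3 regions, one line per library (red MLL-named, blue RAS-named), with a scale of its own for each mark. H3K4me1 rises at the centre of bivalent regions and dips at the centre of the others, while H3K27ac and H3K79me2 run far lower on bivalent regions.

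The plot of coverage by distance shows the shape of the repressive domain. In RAS-named replicates 3 and 4, H3K27me3 covered 92.4% and 61.3% of members at the region centre, against 90.1% and 58.9% at 1 kb, and was still at 31.3% and 16.1% at 10 kb. In MLL-named replicates 1 and 2 it was lower at the centre than 1 kb away: 24.1% against 27.7% in replicate 1, and 32.9% against 41.8% in replicate 2. The rule used this mark, so nothing is read from the order of the tags. H3K4me3 narrowed within 2 kb, where 1.07% to 10.7% of members were covered.

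H3K27ac, a mark of active promoters, was the first of the 4 marks outside the rule. It had a peak on 14.3%, 2.41%, 25.1% and 17.5% of bivalent regions in replicates 1 to 4. On the other H3K4me3 regions these shares were 74.8%, 42.7%, 92.3% and 88.4%. The shares on bivalent regions, all at most 25.1%, and those on the others, all at least 42.7%, did not overlap. The mean difference was -59.7 ± 13.7 percentage points (SD, n = 4 libraries). It was negative in 4 of 4 libraries, with an exact two-sided sign-flip p of 0.125, the smallest that 4 libraries allow, and 0.167 after Benjamini-Hochberg adjustment over the 4 marks.

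No H3K27ac peak in any library was found on 797 bivalent regions (68.5%), whereas 11.3% of all H3K4me3 regions lacked it. At least 3 H3K27ac libraries touched 94 members (8.08%), against 68.6% of all regions. All 4 touched 20 members (1.72%), against 35.8% of all regions.

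H3K79me2, which is deposited by Dot1l along the first part of transcribed genes, was low on bivalent regions as well. A peak lay on 12.0%, 7.47%, 5.07% and 4.55% of members in replicates 1 to 4, and on 65.3%, 61.2%, 60.6% and 56.1% of the other regions. The difference of -53.5 ± 1.63 percentage points (SD, n = 4) was nearly the same in every library. Its exact sign-flip p was 0.125 (adjusted 0.167), again the smallest possible. In 988 members (84.9%) no H3K79me2 library had a peak, against 32.9% of all H3K4me3 regions. At least 3 libraries touched 46 members (3.95%) and all 4 touched 21 (1.80%), against 52.9% and 42.9% of all regions.

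Beyond the region, H3K79me2 covered 2.84% to 5.20% of the points 10 kb from the centre of members, against 17.6% to 23.0% around the other regions, so the low level reached past the H3K4me3 region itself.

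**Figure D2:**
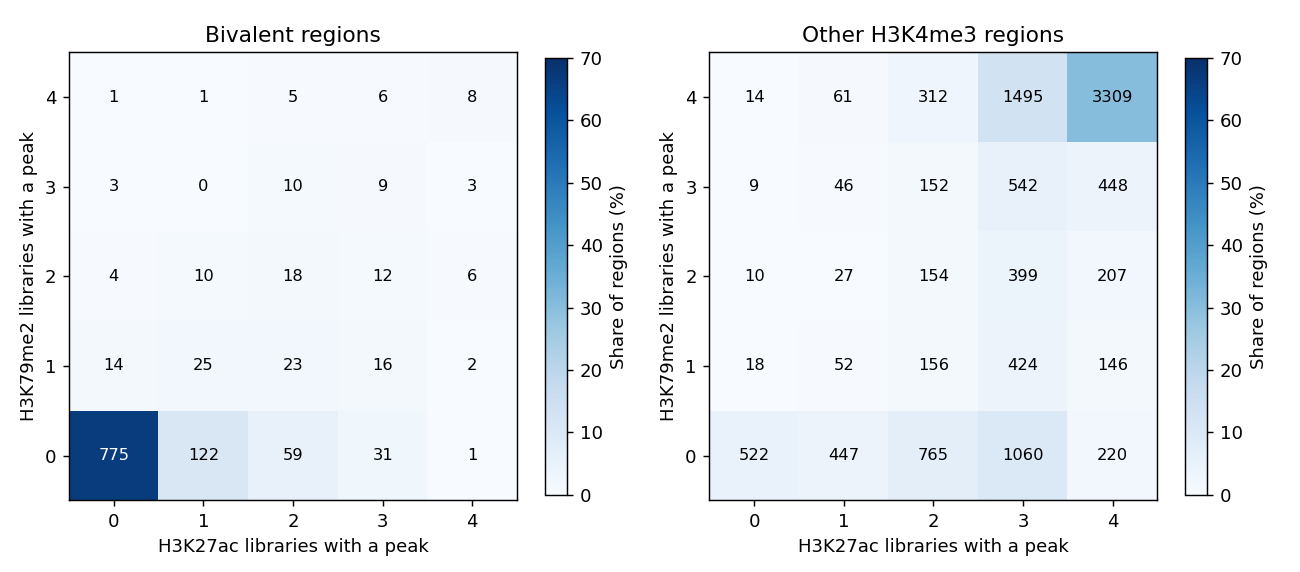
Number of regions by how many H3K27ac libraries (x axis, 0 to 4) and H3K79me2 libraries (y axis, 0 to 4) had a peak on them; colour gives the share of the set (%). The 775 bivalent regions with neither mark fill the lower left corner, while the other H3K4me3 regions gather in the upper right corner, with 3309 in all libraries of both marks.

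Taken as a pair, both active marks were absent from all libraries on 775 members (66.6%), while 10.7% of all H3K4me3 regions were in this state. Both marks were present in at least 3 libraries each on 26 members (2.23%), against 47.9% of all regions. These sets also differed in the marks that the rule used. The 26 members had a median length of 3109 bp with a median of 14.2% of it in H3K27me3, and 10 of them had under 10%. The 775 had a median length of 1222 bp, of which 94.7% lay in H3K27me3, and their domains had a median of 7196 bp.

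H3K4me1, the mark of enhancers and of the flanks of active promoters, differed by position between the sets, while the difference in its presence depended on the setting. A peak lay on 45.5%, 56.4%, 43.9% and 40.5% of members in replicates 1 to 4, and on 47.6%, 57.8%, 57.8% and 41.9% of the other regions. The mean difference was -4.70 ± 6.11 percentage points (SD, n = 4; exact sign-flip p 0.125, adjusted 0.167), smaller than its spread over libraries. Most of it came from replicate 3: without it the difference was -1.64. Within quartiles of region width it was 0.22, so it did not keep its sign when regions of like width were compared. The sign changed under 5 of 21 alternatives. The difference was 17.7 on regions rebuilt with H3K4me3 in all 4 libraries (35.0% against 17.3%). It was 8.85 for members with H3K27me3 in all 4 libraries (60.1% against 51.3%). By region, 405 members (34.8%) had H3K4me1 in at least 3 libraries, 218 (18.7%) in all 4 and 255 (21.9%) in none, against 42.9%, 24.5% and 23% of all H3K4me3 regions.

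When a region had to be covered over at least 50% of its length, the order turned. H3K4me1 then covered 7.65%, 18.0%, 13.6% and 12.2% of members in replicates 1 to 4, against 1.32%, 2.81%, 4.05% and 3.55% of the other regions. The share was higher on bivalent regions in 4 of 4 libraries, by 3.35-fold to 6.39-fold and by 9.91 ± 3.74 percentage points (SD, n = 4; exact sign-flip p 0.125, adjusted 0.167). Bivalent regions were shorter, and within quartiles of region width the mean difference was 9.20 percentage points, again in 4 of 4 libraries (12.2% against 2.95%; exact sign-flip p 0.125, adjusted 0.167). The list of H3K4me3 replicate 1, which touched members and others about equally, also covered at least 50% of more members (5.93% against 1.16%, or 4.46% against 1.20% within width quartiles), and what it shares with the H3K4me1 difference was not tested. By position, H3K4me1 covered 13.7% to 21.8% of members at the centre and 6.62% to 12.0% at 1 kb. Around the other regions it covered 3.08% to 5.30% at the centre and 12.7% to 20.6% at 1 kb. In all 4 libraries, H3K4me1 was thus more frequent at the centre than at 1 kb for bivalent regions and the reverse for the others.

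A set of 274 members (23.5%) had H3K4me1 in at least 3 libraries and neither H3K27ac nor H3K79me2 in any; 2.5% of all H3K4me3 regions had this combination, and 30 of the 304 were not bivalent. These members had a median of 100% of their length in H3K27me3, and 197 of them had H3K27me3 in all 4 libraries. In contrast, 149 members (12.8%) had no peak of any of the other 4 marks in any library, against 3.46% of all regions.

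H3K9me3, the mark of constitutive heterochromatin and of silenced repeats, was rare. It touched 7, 11, 17 and 79 members in replicates 1 to 4, which were 0.601%, 0.945%, 1.46% and 6.79%. On the other H3K4me3 regions the shares were 1.56%, 1.57%, 1.53% and 4.05%. The difference was 0.27 ± 1.69 percentage points (SD, n = 4; exact sign-flip p 1, adjusted 1), negative in 3 libraries and positive in replicate 4, and without replicate 4 it was -0.55. A single library touched 64 members (5.50%), against 2.54% of the other regions, and for 62 of the 64 it was replicate 4. Replicate 4 covered 21 members (1.80%) over at least 50%, close to the 1.55% of the other regions. At least 3 H3K9me3 libraries touched 8 members (0.687%) and all 4 touched 6 (0.515%), against 1.44% and 1.37% of all regions. None touched 1082 members (93.0%), against 95.6% of all regions.

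**Figure D3:**
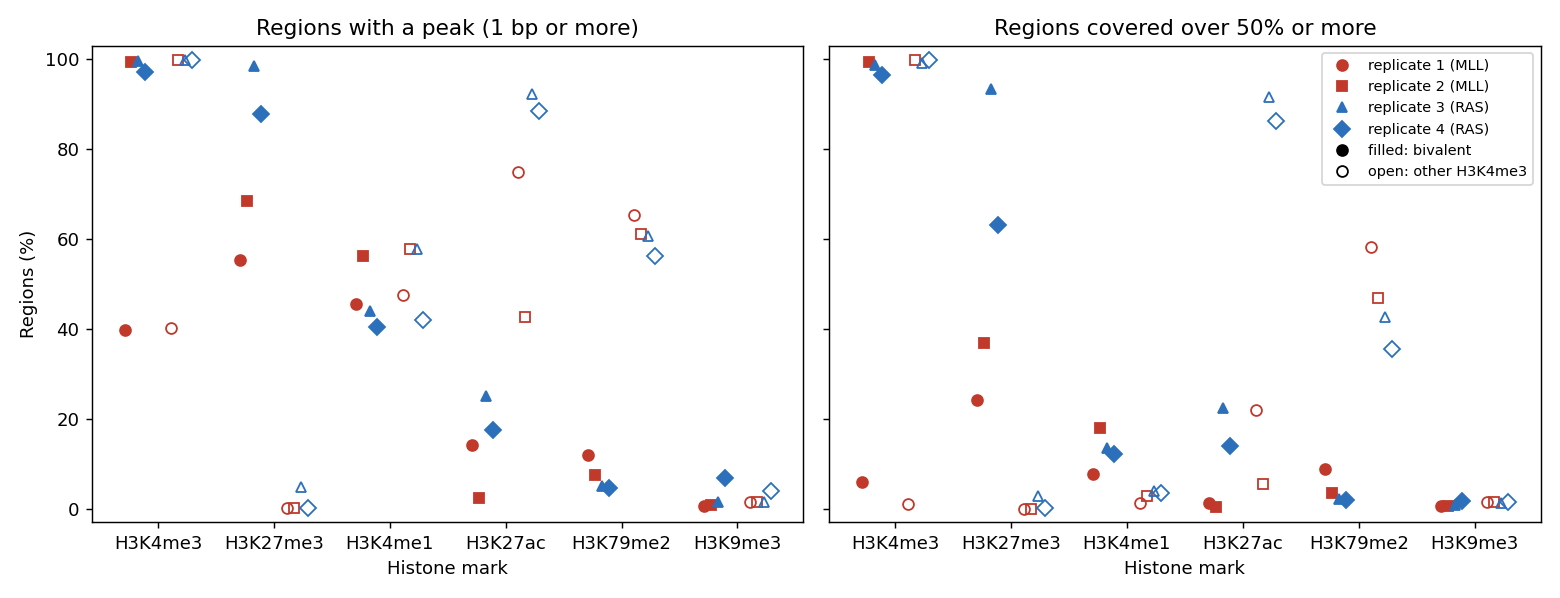
Share of regions (%) with a peak (left) and covered over at least 50% (right) for each mark and library; filled symbols are bivalent and open symbols other H3K4me3 regions, red MLL-named and blue RAS-named, one symbol shape per replicate. H3K4me1 overlaps between the sets on the left and is higher on bivalent regions on the right, while H3K27ac and H3K79me2 are lower on bivalent regions in each library.

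The members were not uniform, and the levels of the 4 marks outside the rule differed with how many H3K27me3 libraries covered a region. Of the 375 members with 2 H3K27me3 libraries, 271 had the RAS-named pair alone, so the number and the tag of the libraries were not separated. H3K27ac was present on 24%, 3.73%, 40.3% and 27.5% of the 375 members with 2 H3K27me3 libraries (replicates 1 to 4). On the 496 members with all 4, it was present on 6.85%, 0.806%, 11.3% and 8.87%. H3K79me2 fell likewise in each library, from 17.1%, 12.5%, 7.47% and 6.67% of members with 2 H3K27me3 libraries to 7.86%, 4.44%, 3.02% and 2.02% of those with 4.

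H3K4me1 went the other way. The share of members covered by it over at least 50% was 2.13%, 5.07%, 4.80% and 4.80% with 2 H3K27me3 libraries, and 13.7%, 30.6%, 21.8% and 18.3% with 4. Both groups had similar lengths, with medians of 1380 and 1465 bp. H3K9me3 lay on 0.533%, 0.80%, 0.80% and 4.53% of members with 2 H3K27me3 libraries, and on 0.605%, 1.21%, 2.42% and 10.3% of those with 4. It was higher with 4 in each library, by the least in replicate 1, and replicates 1 and 2 touched only 7 and 11 members in all. On the 10412 H3K4me3 regions without any H3K27me3 peak, H3K9me3 lay on 1.61%, 1.62%, 1.58% and 4.18%. That was above the share with 4 in replicates 1 and 2 and below it in replicates 3 and 4.

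For H3K27ac and H3K79me2, regions just short of the rule lay between those without H3K27me3 and the members. Among the 573 H3K4me3 regions with H3K27me3 in 1 library, H3K27ac was on 33.3%, 8.55%, 61.4% and 61.8% in replicates 1 to 4. On the 10412 regions without any H3K27me3 peak it was on 77.1%, 44.6%, 94.0% and 89.9%. The order over 0, 1, 2, 3 and 4 H3K27me3 libraries was falling at every step for H3K27ac and for H3K79me2 in each of the 4 libraries, as the plot by number of H3K27me3 libraries shows. These values are given as a description, with no test.

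**Figure D4:**
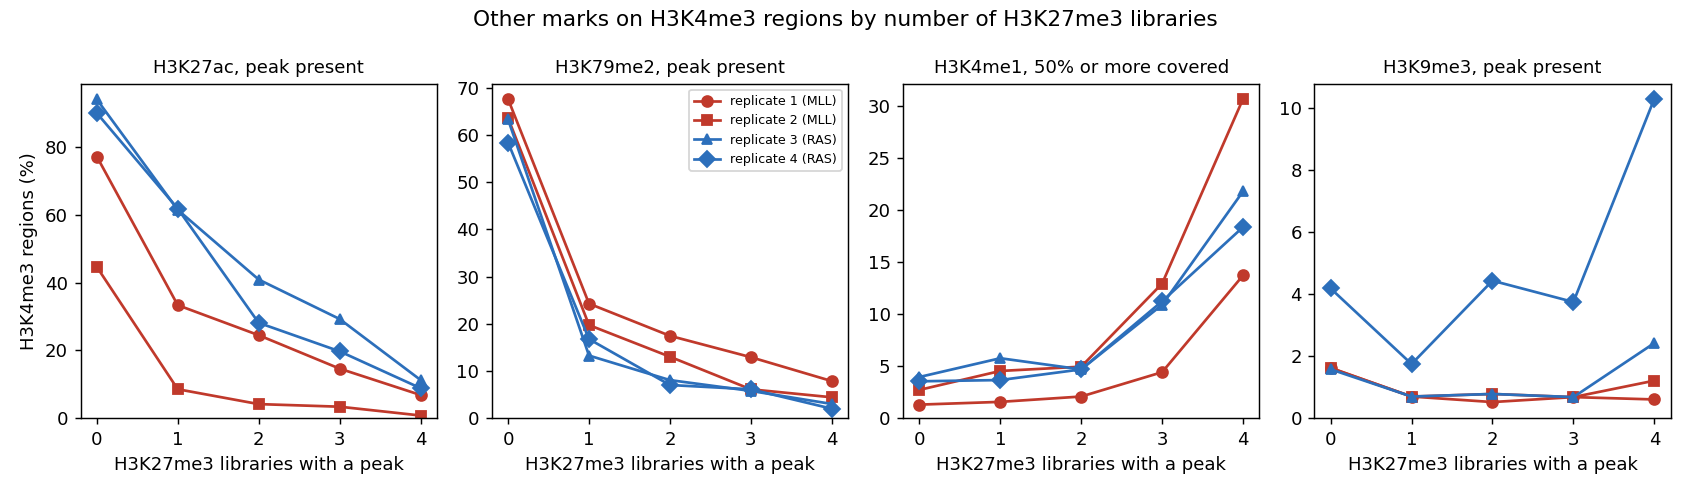
Share of H3K4me3 regions (%) with H3K27ac, H3K79me2 or H3K9me3, or covered over at least 50% by H3K4me1, by the number of H3K27me3 libraries with a peak on the region (x axis, 0 to 4); one line per library, red MLL-named and blue RAS-named. H3K27ac and H3K79me2 fall from 0 to 4 and H3K4me1 reaches its highest share at 4 in every library; H3K9me3 is highest in replicate 4 throughout.

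The extent of H3K27me3 over the member gave the same order for the active marks. In the 52 members with under 10% of their length in H3K27me3, H3K27ac was on 42.3%, 19.2%, 61.5% and 51.9% in replicates 1 to 4. In the 376 members wholly within H3K27me3 it was on 5.59%, 1.06%, 7.71% and 4.26%. H3K79me2 went from 28.8%, 26.9%, 23.1% and 25% to 4.52%, 1.86%, 1.33% and 0.266%. H3K4me1 over at least 50% of the member went from 0%, 0%, 3.85% and 7.69% to 16.8%, 36.4%, 24.5% and 25.5%. The wholly covered members were shorter, with a median of 1112 bp against 2021 bp.

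The libraries were next set side by side by name tag, to describe bivalent regions in tumours named for MLL and for RAS. With 2 libraries against 2, an exact permutation test cannot go below 0.333, so no test was made. H3K27ac was lower in the MLL-named libraries (14.3% and 2.41% of members) than in the RAS-named ones (25.1% and 17.5%). The other H3K4me3 regions showed the same order with a larger gap, 74.8% and 42.7% against 92.3% and 88.4%. The MLL-named H3K27ac lists covered 19.9 and 22.1 Mb and the RAS-named ones 114.5 and 112.4 Mb; the part of this in the result was not tested. As a ratio of members to other regions, the libraries gave 0.191, 0.0563, 0.272 and 0.198 in replicates 1 to 4. On the 271 members with H3K27me3 in neither MLL-named library, H3K27ac was on 27.7%, 2.95%, 39.5% and 21.4%, so the tags overlapped. On the 550 members with H3K27me3 in both MLL-named libraries, the shares were 7.82%, 1.64%, 14.0% and 12.9%.

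No member had H3K27ac in both MLL-named and neither RAS-named library, a pattern found in 0.0164% of all regions. The reverse held for 61 members (5.24%), against 11.5% of all H3K4me3 regions. The longest of these lay at chr7:51843718-51849386, where H3K27ac covered 82.8% and 82.0% of 5669 bp in the RAS-named libraries. H3K79me2 was present there in all 4 libraries, over 57.6%, 57.8%, 46.8% and 78.1% of the region in replicates 1 to 4.

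H3K79me2 on bivalent regions was higher in the MLL-named libraries, at 12.0% and 7.47%, than in the RAS-named ones, at 5.07% and 4.55%. On the other regions the values were 65.3% and 61.2% against 60.6% and 56.1%, a difference of 4.94 percentage points on members and 4.86 on the others. The 4.94 was 2.66 without replicate 1, and 11.0 with the same number of best-scored peaks in each library of a mark and the bivalent regions rebuilt from those peaks (394 regions). As a ratio of members to others, the MLL-named libraries gave 0.184 and 0.122, above the 0.0836 and 0.0811 of the RAS-named ones. The rule was met by 271 members through both RAS-named H3K27me3 libraries alone and by 3 through both MLL-named ones alone. The part of this choice in the order of the tags was not tested, for H3K79me2 or for any other mark.

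By region, 34 members (2.92%) had H3K79me2 in both MLL-named and neither RAS-named library, and 2.87% of all H3K4me3 regions did, so members were close to the background. The reverse pattern was found on 4 members (0.344%), against 0.831% of all regions. The longest of these 4 was chr18:15220564-15224680, with H3K79me2 over 29.0% and 39.5% in replicates 3 and 4. The longest member of the first kind lay at chr1:186551501-186557987. H3K79me2 covered 71.2% and 44.9% of its 6487 bp in replicates 1 and 2 and none in replicates 3 and 4. H3K27me3 ran the opposite way there, at 0%, 28.7%, 100% and 77.5% in replicates 1 to 4.

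H3K4me1 was on 45.5% and 56.4% of members in the MLL-named libraries and on 43.9% and 40.5% in the RAS-named ones. The values did not overlap. For this mark the MLL-named lists covered 15.5 and 24.9 Mb and the RAS-named ones 46.8 and 55.6 Mb. The part of this in the order of the tags was not tested. The gap between 45.5% and 43.9% was smaller than that between libraries of one tag. On the other regions the tags overlapped, with 47.6% and 57.8% against 57.8% and 41.9%. With the same number of best-scored H3K4me1 peaks in each library and the bivalent regions rebuilt in the same way, the shares were 47.7% and 47.2% against 32.7% and 26.1%. With only peaks of at least the median score in every list, which left 757 rebuilt bivalent regions, they were 21.3% and 32.6% against 24.8% and 21.9%, so the tags overlapped and the difference of 8.72 percentage points fell to 3.57. Over at least 50% of the region the tags overlapped, at 7.65% and 18.0% against 13.6% and 12.2%.

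A total of 67 members (5.76%) had H3K4me1 in both MLL-named and neither RAS-named library, against 3.67% of all H3K4me3 regions. The reverse was seen on 28 members (2.41%), against 2.55%. The longest of the 67 was at chr5:58106995-58110693, with H3K4me1 over 34.1% and 75.9% in replicates 1 and 2 and none in the others. H3K27me3 covered 79.05%, 100%, 100% and 64.2% of that region in replicates 1 to 4, and no peak of H3K27ac, H3K79me2 or H3K9me3 touched it. The longest of the 28 was at chr6:145810942-145815521, where H3K4me1 covered 18.0% and 28.4% in replicates 3 and 4.

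For H3K9me3, the MLL-named libraries touched 0.601% and 0.945% of members and the RAS-named ones 1.46% and 6.79%. On the other H3K4me3 regions the values were 1.56% and 1.57% against 1.53% and 4.05%, a difference of -1.22 percentage points in which replicate 4 alone stood higher. On members the difference was -3.35 and became -0.73 with peaks of at least the median score and -1.02 with equal peak numbers, both on the rebuilt regions, -0.69 with 50% of the region covered and -0.69 without replicate 4. No member had it in both MLL-named libraries alone (0.00822% of all regions did), and 7 (0.601%) had it in both RAS-named libraries alone, against 0.074% of all regions. The longest of the 7 lay at chr11:82743653-82747367, with H3K9me3 over 16.5% and 53.2% of 3715 bp in replicates 3 and 4.

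Individual regions show the range of states. The members with most bases in both marks held 4496 to 5728 bp of such sequence. The first was chr6:88143864-88152352 (8489 bp), where H3K4me3 covered 2.91%, 100%, 72.7% and 90.0% in replicates 1 to 4 and H3K27me3 covered 46.4%, 86.6%, 100% and 100%. H3K79me2 covered 78.4% of it in replicate 1 and none in the other 3 libraries. The second was chr8:123605030-123610587 (5558 bp), inside an H3K27me3 domain of 31984 bp. It repeated that H3K79me2 pattern, with 75.2% and 1.48% in replicates 1 and 2 and none in replicates 3 and 4, and it had no H3K4me1 peak.

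The third, at chr2:115887281-115893792 (6512 bp), had no H3K79me2 in any library and H3K27me3 over 10.2%, 45.9%, 100% and 88.4%. The fourth, at chr16:18585430-18591196 (5767 bp), had H3K27ac over its whole length in replicate 3 and none in the other libraries, with H3K27me3 over 57.9% to 98.2% in all 4. The fifth, at chr13:72764612-72770293 (5682 bp), had H3K27me3 in replicates 3 and 4 alone (83.7% and 96.1%). There H3K79me2 covered 96.6%, 77.7%, 72.9% and 14.6% in replicates 1 to 4. The sixth was the region on chromosome 1 with H3K79me2 in the MLL-named libraries alone, described above.

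The longest members with H3K27ac and H3K79me2 in all libraries were wide regions with a small share of their length in at least 2 H3K27me3 libraries. At chr12:57620278-57639456, the longest of all members with 19179 bp, 130 bp (0.68%) were in H3K27me3 in at least 2 libraries. H3K27ac covered 45.7%, 66.5%, 100% and 99.7% of it and H3K79me2 91.3% to 99.3%. At chr8:94877373-94890196 (12824 bp) and chr2:147862561-147873162 (10602 bp), the overlap was 1032 and 1315 bp (8.05% and 12.4%), above the median of 873.5 bp over all members. H3K27me3 replicate 3 alone reached further, over 8.18%, 48.6% and 33.9% of these 3 regions. H3K79me2 covered 84.7% to 88.9% of the region on chromosome 8 and 84.6% to 89.2% of that on chromosome 2.

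The longest members free of H3K27ac, H3K79me2 and H3K9me3 in every library carried both H3K27me3 and H3K4me1 in all 4 libraries. They belonged to a set of 722 members (62.0%), against 9.58% of all H3K4me3 regions. At chr6:84534691-84539736 (5046 bp), H3K27me3 covered 64.5%, 77.1%, 100% and 100% and H3K4me1 31.9%, 59.2%, 61.4% and 64.9%. At chr14:70474324-70478952 (4629 bp), H3K27me3 covered 50.2% to 92.4% and H3K4me1 33.0% to 48.6%. At chr13:40825464-40829781 (4318 bp), the ranges were 54.8% to 100% and 22.5% to 66.0%.

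H3K9me3 filled the longest 2 of the 8 members that had it in at least 3 libraries. At chr6:30907104-30909748 (2645 bp) it covered 91.1% to 99.1%, with H3K27me3 over 59.4% to 100%. At chr5:144014583-144017182 (2600 bp) it covered 100% in all 4 libraries, and H3K27me3 covered 99.2% in replicate 3, 8.92% in replicate 1 and none in the other 2. Neither carried H3K4me1 or H3K79me2 in any library.

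**Figure D5:**
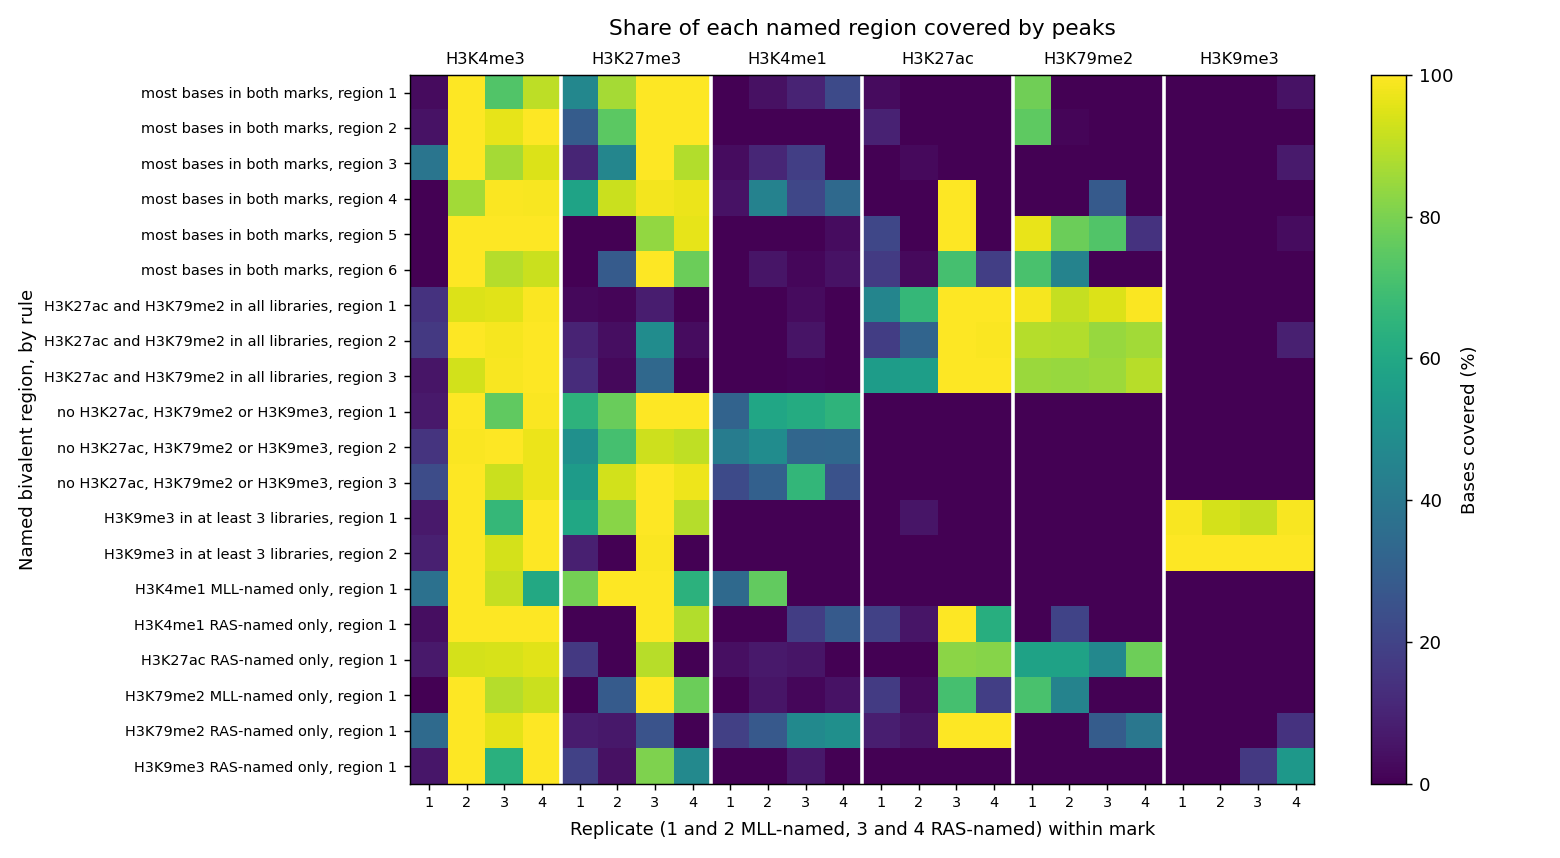
Share of each named bivalent region (rows, grouped by the rule that named it) covered by peaks in each of the 24 libraries (columns, replicates 1 to 4 within each mark), in % of its bases. Rows chosen for H3K27ac and H3K79me2 in all libraries hold H3K27me3 over at most 12.8% in replicates 1, 2 and 4 and over 8.18% to 48.6% in replicate 3, and rows chosen for their absence carry H3K27me3 and H3K4me1 in all 4 libraries.

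The spacing of bivalent regions was also described, with no test. For 18.1% of members the nearest H3K4me3 region was itself bivalent, against 6.73% for the other H3K4me3 regions; the overall share of bivalent regions was 9.57%. The nearest H3K4me3 region of any kind was farther from members, at a median of 56.1 kb against 30.2 kb. Chaining members at most 20 kb apart left 1020 single regions and 67 groups that held 144 members.

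Only 2 groups reached 4 members. The first, with 6 members, was chr6:52108120-52168012 (59.9 kb); 3 of its members had H3K27ac and 3 had H3K79me2 in at least 1 library, and none had H3K4me1. The second, with 5 members within 13035 bp, was chr11:85645307-85658341. None of its members had H3K27ac or H3K79me2 in any library, 3 had H3K4me1 and 2 had H3K9me3.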

How the data were processed

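Per the labels' protocols, ChIP-seq was done on fixed lung tumour tissue, with 4 libraries for each of 6 marks and 4 input samples, whose data were not analysed here. The submitters' processing notes name mm9, CASAVA 1.7, Bowtie, MACS and deepTools without settings. The authors deposited 1 peak list per library (5224 to 96068 peaks), not pooled, with a score per peak that never fell below 50; the score in the deposited lists was used only to filter or rank peaks. Read depth is not given in the sources used here.

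Peaks on chromosomes 1 to 19 were merged per library, and regions were built as stated in the report with Python 3.11.15 and numpy 2.4.6. The interval steps were tested on 20 simulated chromosomes with 0 mismatches against base-by-base counting. A mark counted as present on a region at 1 bp of overlap. Shares on members and on other H3K4me3 regions were compared within each library with an exact sign-flip test (two-sided, 16 sign patterns over 4 libraries), with Benjamini-Hochberg adjustment over 4 marks. The pairing comes from both shares being read in the same library. Where nothing in the labels says that replicates came from separate animals, p-values measure only the spread between these libraries. Named regions were the largest of each stated kind, by fixed rules, and the members just inside and outside the overlap threshold. The grouping of neighbours and the splits by H3K27me3 extent were chosen after the values were seen. The members and rules were chosen with earlier results of these data known. The alternatives tried are given in the closing section. The gene table at hand was of another build, so the planned gene lists were not run and no sequence is printed.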

Additional observations from a re-analysis of the deposited data

Results flagged for a closer look

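In 18 groups of 4 libraries (for each mark, the share of members with a peak, the share covered over at least 50%, and the ratio of members to other regions with a peak), 5 had a library far from the other 3. Chance flags about 1 in 20 such groups, but the groups share libraries, and those of H3K4me3 and H3K27me3 were used to choose the members, so the number of flags is not read against it. H3K4me3 replicate 1 touched 39.8% of members and covered 5.93% of them over at least 50%, against at least 97.3% and 96.6% in the other 3 libraries; the rule asked for this mark in 3 of 4 libraries, so these are a description. H3K9me3 replicate 4 touched 6.79% of members and covered 1.80% over at least 50%, against at most 1.46% and 0.773% elsewhere. H3K4me1 replicate 3 had a ratio of members to other regions of 0.760, against 0.956 to 0.975 in the other 3. No cause was tested for these.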

How the results depend on the processing

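H3K27ac and H3K79me2 were lower on bivalent than on other H3K4me3 regions under all 21 alternatives run. Their differences ranged from -67.6 to -41.8 and from -59.4 to -41.7 percentage points, with adjusted exact p from 0.0571 to 0.333. The number of bivalent regions moved with the rule. It was 757 when only scores of 92.1 (the median) or more were kept, 394 with equal numbers of best-scored peaks per mark, 749 with bases in at least 3 H3K27me3 libraries, 1747 with bases in at least 1 and 282 with bases in all 4 H3K4me3 libraries; other values under these settings are also on rebuilt regions. By a peak anywhere on the region, 496 members had H3K27me3 in all 4 libraries, a setting chosen after seeing the data. Rebuilding without a replicate, with at least 2 of the 3 remaining libraries required for each mark, gave 857 to 1555.

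The H3K4me1 difference of -4.70 changed sign under 5 of 21 alternatives: 2.78 with H3K27me3 in at least 3 libraries, 17.7 with H3K4me3 in all 4, 9.91 with at least 50% of the region covered (9.20 when this was taken within width quartiles, chosen after seeing the data), 0.223 within width quartiles and 8.85 with H3K27me3 in all 4. The H3K9me3 difference of 0.27 changed sign under 8: -0.500 with the score minimum, -0.499 with equal peak numbers, -0.664 with no gap closed, -0.301 with H3K27me3 in at least 1 library, -0.870 with H3K4me3 in at least 2, -0.508 with 50% covered and -0.938 when rebuilt from the libraries other than replicate 1. Leaving out a replicate with the members kept gave -0.553 (without replicate 4) to 0.681. The cause was not tested for any of these.

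Between MLL-named and RAS-named libraries, equal peak numbers moved the H3K4me1 difference from 8.72 to 18.0 and that of H3K79me2 from 4.94 to 11.0, and 50% coverage turned H3K4me1 to -0.0859. With the score minimum the H3K4me1 difference was 3.57 and the tags overlapped. The H3K9me3 difference of -3.35 was -0.727 with the score minimum, -1.02 with equal peak numbers, -0.687 with 50% covered and -5.44 with H3K27me3 in all 4. That of H3K27ac, -13.0, was -10.8, -19.3, -17.3 and -6.25 under the same settings in that order. Without 1 library, the H3K27ac difference ran from -18.9 (replicate 1) to -7.04 (replicate 2), H3K79me2 from 2.66 (replicate 1) to 7.22 (replicate 2), H3K4me1 from 3.31 (replicate 2) to 14.1 (replicate 1) and H3K9me3 from -6.01 (replicate 3) to -0.687 (replicate 4). The tests were paired within libraries. With no replicate block (exact permutation of 4 shares against 4), the differences were the same, -59.7 for H3K27ac and -53.5 for H3K79me2 (adjusted p 0.0571 for both), -4.70 for H3K4me1 (0.457) and 0.27 for H3K9me3 (1). Read depth is unknown, so a mark without a peak on a region may lie below what a library could show.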
